A study of Mus musculus with 2 samples.

Results

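The clade B serpins are the 27 gene names on the array that begin with Serpinb and a digit, read by 31 of its 39417 probes. Of these genes, 12 have probes in a cluster on chromosome 1 and 14 in a cluster on chromosome 13. The probe of Serpinb1c carries no position in the files, and the RefSeq gene table places that gene on chromosome 13. All 27 names matched a RefSeq gene of the same symbol through the probe's accession. RefSeq lists 1 further coding gene of this family, Serpinb9h, which has no probe of that name.

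Serpins are protease inhibitors that work as a trap. The target protease cuts an exposed loop of the serpin, the serpin then refolds around it, and both end in a covalent complex. Clade B members lack the classical secretion signal and act largely inside cells, where they restrain cathepsins, granule proteases of white blood cells, granzymes and trypsin-like or kallikrein-like proteases that escape their compartments. In epidermis several of them are abundant keratinocyte proteins. In the mouse, local gene copying has expanded the Serpinb1, Serpinb3, Serpinb6 and Serpinb9 genes relative to the single human counterparts or pairs.

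The data are 2 single-colour arrays of skin taken from the back at postnatal day 0, both on the C57BL/6J background. One array holds Sdr9c7+/+ wild type RNA and the other Sdr9c7-/- knockout RNA, so n = 1 per genotype, and each RNA was an equal mix from 5 animals. The sample labels say skin while the design text says epidermis. Sdr9c7 encodes a dehydrogenase of the upper epidermis, and its relative signal was 0.324 on the wild type array and 0.0479 on the knockout array, 6.78-fold lower in the latter. Signals are given relative to the 75th percentile of each array, so that 1 equals that percentile, and levels of different probes are not set against each other. A difference is the log2 signal of the knockout minus that of the wild type, followed by ± the error that the scanner software estimates for it. That error is an estimate for the spot and not for the animals, and no p-value can be given. It was ± 0.20 for nearly all bright single probes and wider for dim ones. Being within or beyond it is therefore close to a fixed fold limit and not a precision measured for each gene. For a gene with several measured probes it was combined as if the probes were independent.

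Markers of both keratinocyte layers were well above background, as were those of muscle and fat. All 8 skeletal muscle markers were lower in the knockout, with a median log2 difference of −0.97 and summed relative signals of 138 (wild type) and 77.6 (knockout). All 7 adipocyte markers were lower too, with a median of −0.89 and summed signals of 83.1 and 54.0. The 6 basal keratinocyte markers had a median of 0.12, the 7 suprabasal ones 0.03, the 6 fibroblast ones −0.04 and the 6 of the hair follicle −0.37. Over the other processing settings the muscle median stayed between −1.03 and −0.93 and the fat median between −0.89 and −0.83, whereas the suprabasal, fibroblast and hair follicle medians changed sign, the last reaching 0.15. In skin RNA, fewer cells of a type and less RNA per cell cannot be told apart, and the part of the muscle and fat markers in the differences below was not tested.

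Many clade B serpins are close copies, so what a probe can tell apart depends on its letters. The probes of Serpinb3c and Serpinb3a overlap in 48 bases, of which 43 are identical. The following 28 bases, 5′ to 3′ as on the probe, come from the part where they differ most, with the differing bases in capitals.
Serpinb3c: ttaAtCtagGttcttctaatctagcatG
Serpinb3a: ttaTtAtagTttcttctaatctagcatA
Counted from the first base shown, the substitutions from Serpinb3c to Serpinb3a are A4T, C6A, G10T and G28A.

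The probes of Serpinb6a, Serpinb6c and Serpinb6e are also alike. Serpinb6a and one of the Serpinb6c probes share 55 of 59 overlapping bases, and that Serpinb6c probe shares 46 of 56 with Serpinb6e. Capitals again mark each base at which any of them differ.
Serpinb6a: GcaATtatgaaataaagggCttTATgGC
Serpinb6c: AcaGCtatgaaataaagggCttAATgGC
Serpinb6e: AcaGTtatgaaataaagggTttATGgTA
The same holds for a pair that was not detected, Serpinb9f and Serpinb9g, whose probes share 52 of 59 bases.
Serpinb9f: ttctatctgttttcaatatAtTtaCAtA
Serpinb9g: ttctatctgttttcaatatGtAtaAGtG
The signals of these copies are therefore uncertain as measures of single genes. The probes of Serpinb10, Serpinb3b and Serpinb12 showed no such likeness to another member's probe. Probes were compared only with probes, and whether these also bind the transcripts of other members was not tested. The probes below are shown whole because their genes figure in the results. Only probes that start by base 1200 of their transcript were shown whole, which leaves out those of Serpinb2, Serpinb13 and Serpinb3c. Capitals in the last pair mark the 24 bases that both Serpinb12 probes share.
Serpinb10, chr1:109443390-109443449 (+): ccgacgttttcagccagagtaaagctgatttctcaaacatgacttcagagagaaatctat
Serpinb3b, chr1:109051288-109051347 (-): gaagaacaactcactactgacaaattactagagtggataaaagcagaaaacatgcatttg
Serpinb12, chr1:108846143-108846202 (+): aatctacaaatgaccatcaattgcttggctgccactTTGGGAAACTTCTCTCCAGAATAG
Serpinb12, chr1:108846179-108846238 (+): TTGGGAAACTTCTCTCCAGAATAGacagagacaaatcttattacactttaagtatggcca
These positions are those of the files, on mouse build mm9.

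Of the 27 genes, 23 had a probe well above background on both arrays, beside 22719 of all 31035 genes of the array. None of the 23 differed by 1.5-fold or more. Among all 22719 measured genes, 2.36% passed 1.5-fold in favour of the knockout, 6.05% passed it in favour of the wild type, and 1.88% were 2-fold or more apart in either direction. The median log2 difference of the 23 serpins was 0.02, beside −0.04 for all measured genes, with 12 above 0 and 11 below. Over all measured genes 43.1% lay above 0 and 56.9% below. For 13 of the 23 the difference was no larger than the error estimated for it, a share that was not counted over all genes. Serpinb12 lay beyond its error only with its 2 probes taken as independent. Serpinb2 and Serpinb10 were higher, and Serpinb13 lower, by more than 2 times the error of each. That limit was passed by 5.53% of all genes upward and 10.8% downward. At 1.2-fold, a threshold chosen after the values were seen, 4 members were higher (Serpinb2, Serpinb10, Serpinb3c and Serpinb3b) and 3 lower (Serpinb13, Serpinb9c and Serpinb6b). The share of all genes past that threshold was 11.4% upward and 19.7% downward. Some of these calls depended on the processing. Serpinb6b fell short of 1.2-fold under 5 of 10 alternatives, Serpinb3b under 1 of 10 and Serpinb9c under 1 of the 8 that gave it a value.

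**Figure D1:**
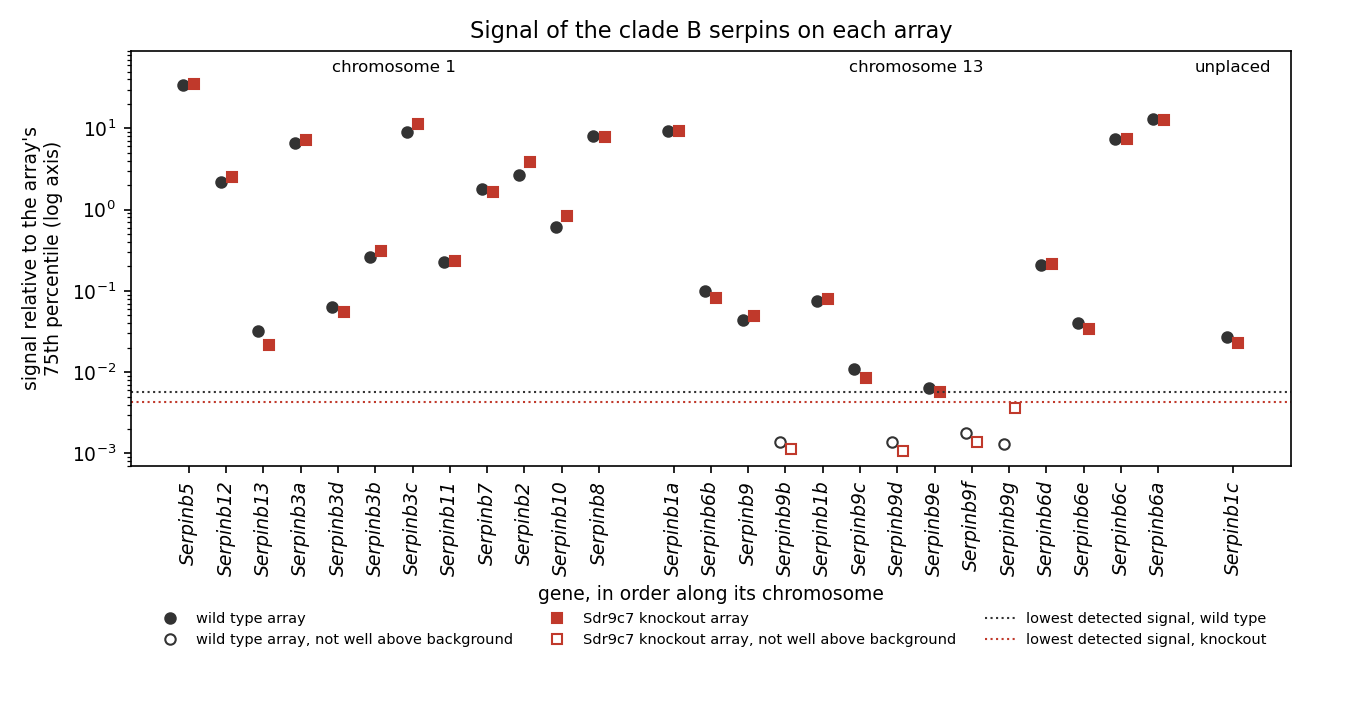
Relative signal (log axis) of each clade B serpin on the wild type array (circles) and the knockout array (squares), in order along each chromosome, with open symbols for genes not well above background and dotted lines at the lowest detected signal of each array. The 2 symbols of a gene lie close together in every measured case, and the 4 open pairs all belong to Serpinb9 genes of chromosome 13.

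The chromosome 1 cluster spans 726 kb between its outermost probes (chr1:108778585-109504924, mm9), and all 12 of its genes were measured. Their median log2 difference was 0.09 and 8 lay above 0, with 4 past 1.2-fold upward and 1 downward. Serpinb5, or maspin, a serpin that does not inhibit proteases and is made by epithelial cells, opens the cluster. Wild type and knockout read 33.8 and 35.1 on the relative scale, a difference of 0.05 ± 0.20. Serpinb12, an inhibitor of trypsin-like proteases, had the same difference at both of its overlapping probes. The signals went from 1.56 to 1.79 at one and from 3.11 to 3.56 at the other. Each probe gave 0.19 ± 0.20, within its error, and the gene 0.19 ± 0.14 with the probes taken as independent. The knockout value was thus slightly higher at each probe, although the 2 probes share bases and are not independent.

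Serpinb13 was the lowest of all members. It encodes hurpin, an inhibitor of cathepsins L and K known from keratinocytes. Wild type skin read 0.0321 and knockout skin 0.0216, which is 1.49-fold lower (−0.57 ± 0.22), just short of 1.5-fold. Both values were well above background but dim, with a mean 5.36 times the lowest detected signal. Of all measured genes, 6.3% differed by as much in the same direction.

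The 4 Serpinb3 genes are the mouse counterparts of the squamous cell carcinoma antigens, inhibitors of papain-like cathepsins and of chymotrypsin-like proteases. Serpinb3c was the most precisely measured member, because its probe was printed in 10 spots over the slide. In the wild type these spots ranged from 8.36 to 9.60 with a median of 9.06, and in the knockout from 10.8 to 12 with a median of 11.4. The 2 sets of spots did not overlap, and every spot was higher in the knockout. How often spots separate in this way was not counted over the 320 probes with at least 8 spots. Repeated spots of those probes also scattered little (median SD 0.06 on the log2 scale), so the separation does not set Serpinb3c apart. The log2 difference of Serpinb3c was 0.34 ± 0.04 (SD of 10 spots of 1 array pair). The estimate of the scanner software for this gene was ± 0.20, since it does not shrink with the number of spots. As high or higher were 7.7% of all measured genes, and the spread between spots does not cover the animals. Serpinb3a had a relative signal of 6.56 and 7.19 (0.13 ± 0.20) and Serpinb3b of 0.259 and 0.314 (0.28 ± 0.20). Serpinb3d differed the other way, from 0.0632 to 0.0548 (−0.21 ± 0.21). So 3 of the 4 genes were higher in the knockout, only Serpinb3b and Serpinb3c by more than their error, and 1 was lower by about its error.

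**Figure D2:**
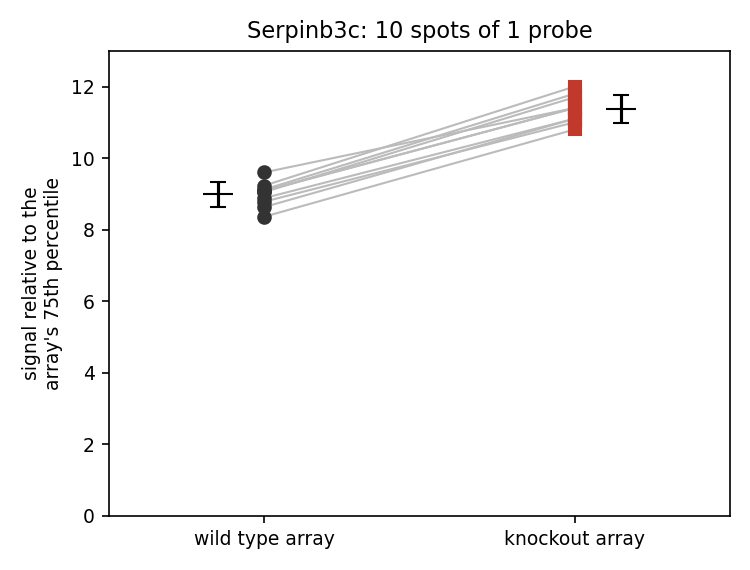
Relative signal at each of the 10 spots of the Serpinb3c probe on the wild type and knockout arrays, with lines joining the same spot position and bars for the mean ± SD over spots. The wild type spots lie between 8.36 and 9.60 and the knockout spots between 10.8 and 12, which is spread within 1 array pair and not between animals.

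The 120 bases before the annotated start of the Serpinb3 genes are printed for reference. The differences of Serpinb3a and Serpinb3d lay within their errors, and any link between these sequences and the differences was not tested. They are RefSeq sequence of build GRCm38.p6, 5′ to 3′ on the strand of the gene, with the letters TATAAA, or TTTATA for the same motif on the other strand, in capitals.
Serpinb3a, chr1:107052304-107052423 (-): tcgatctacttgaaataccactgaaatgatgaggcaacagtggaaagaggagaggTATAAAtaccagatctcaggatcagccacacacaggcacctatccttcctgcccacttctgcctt
Serpinb3b, chr1:107161115-107161234 (-): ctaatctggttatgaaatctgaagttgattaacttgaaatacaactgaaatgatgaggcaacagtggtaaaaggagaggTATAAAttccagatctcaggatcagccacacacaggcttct
Serpinb3c, chr1:107278372-107278491 (-): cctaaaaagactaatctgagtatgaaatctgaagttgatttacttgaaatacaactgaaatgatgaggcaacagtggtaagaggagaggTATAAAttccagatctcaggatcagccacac
Serpinb3d, chr1:107083481-107083600 (-): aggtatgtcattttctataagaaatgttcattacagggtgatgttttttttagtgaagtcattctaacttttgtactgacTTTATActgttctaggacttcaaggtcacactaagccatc
Over windows of 300 bases, from 250 before to 50 after the start, the promoters of Serpinb3b and Serpinb3c were 93.0% identical, those of Serpinb3a and Serpinb3b 85.7% and those of Serpinb3a and Serpinb3c 83.3%. No pair with Serpinb3d reached 80%, and the median over all 459 pairs of promoter entries of different members was 58.3%.

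Farther along the cluster, Serpinb11 read 0.227 and 0.232 (0.03 ± 0.20). Serpinb7, or megsin, whose human counterpart is mutated in a palmoplantar keratoderma, read 1.79 and 1.65 (−0.11 ± 0.20). Serpinb8, an inhibitor of furin whose human counterpart is mutated in a peeling skin disorder, closes the cluster with 8.03 and 7.78 (−0.05 ± 0.20). None of these 3 differed by more than its error.

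Serpinb2 and Serpinb10, next to each other between Serpinb7 and Serpinb8, had the highest differences of the family. Serpinb2 encodes plasminogen activator inhibitor 2, an inhibitor of urokinase that keratinocytes also build into the cornified envelope. The wild type array read 2.66 and the knockout array 3.87, 1.45-fold higher (0.54 ± 0.20), and 2.9% of all measured genes were as high or higher. Serpinb10, or bomapin, is known from blood-forming cells. It read 0.613 and 0.845, 1.38-fold higher (0.46 ± 0.20), with 4.2% of genes as high or higher. Among the 4 lists of white blood cell markers, the median was below 0 for neutrophils (−0.11, 5 measured). It was above 0 for mast cells (0.17, 6 measured), T and NK cells (0.18, 5 measured) and macrophages and Langerhans cells (0.06, 5 measured). The platelet and erythroid list had a median of 0.09 (4 measured), from −0.36 for Ppbp to 0.52 for Hbb-b1. Of its genes 2 lay above 0 and 2 below. The part of any of these lists in the Serpinb10 value was not tested.

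The bases before the start of these 2 genes are shown in the same way, with TATAAA in capitals. Any part of these sequences in the differences was not tested.
Serpinb2, chr1:107511303-107511422 (+): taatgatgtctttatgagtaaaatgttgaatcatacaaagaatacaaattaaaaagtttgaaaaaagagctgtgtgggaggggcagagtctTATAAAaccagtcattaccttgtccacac
Serpinb10, chr1:107528883-107529002 (+): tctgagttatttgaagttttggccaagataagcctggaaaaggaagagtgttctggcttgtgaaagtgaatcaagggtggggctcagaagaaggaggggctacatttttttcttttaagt
RefSeq gives 2 start sites for Serpinb2, of which one is shown. TATAAA, searched on both strands of the 300-base windows, was present in 11 of the 31 promoter entries of members (35.5%) and in 13.6% of all promoters. The 31 entries belong to 25 members and include close copies. Those with the motif belong to 9 genes, namely Serpinb2, the 4 Serpinb3 genes, Serpinb7, Serpinb12, Serpinb1c and Serpinb6c. Serpinb10 had no match. The 9 include genes higher and genes lower in the knockout, and any link of the motif to the differences was not tested. The AP-1 motif TGACTCA was found in 2 of the 31 (6.45%), those of Serpinb7 and Serpinb8, beside 5.20% of all promoters. These are matches of letters and not sites shown to be bound.

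**Figure D3:**
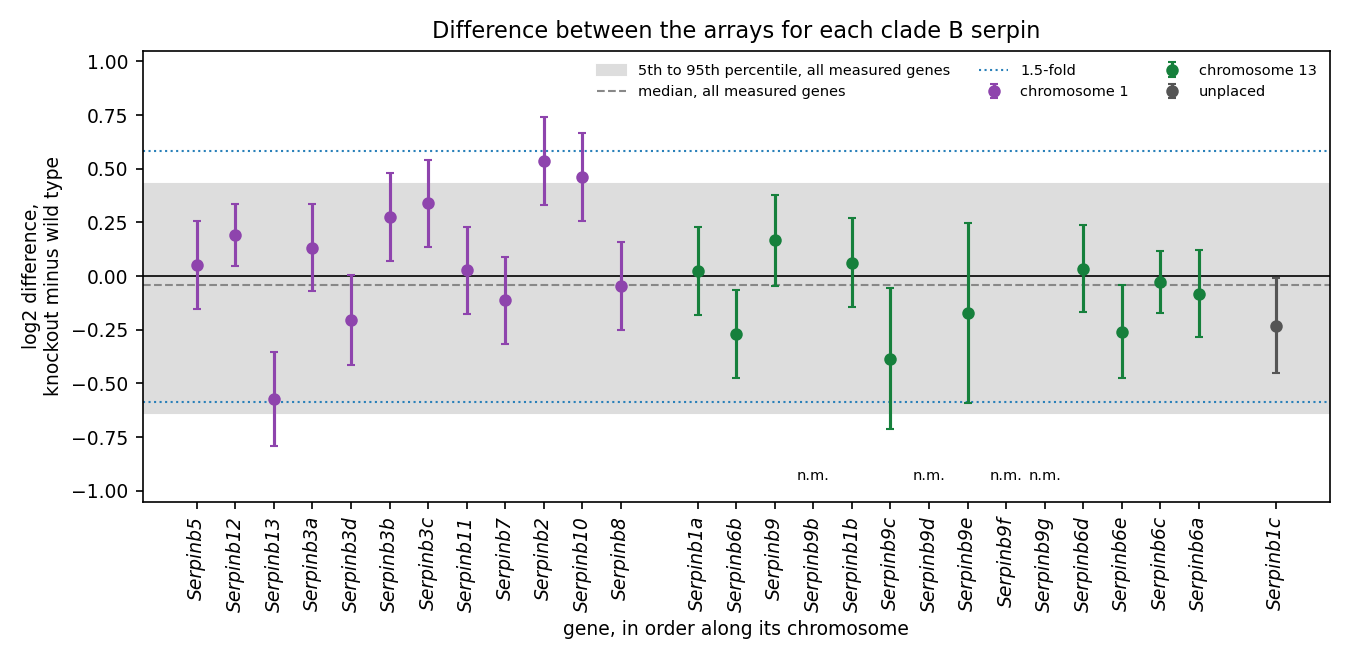
Log2 difference, knockout minus wild type, of each measured clade B serpin in order along its chromosome, with bars for the error estimate of the scanner software, a grey band from the 5th to the 95th percentile of all measured genes and dotted lines at 1.5-fold; n.m. marks genes not measured. Serpinb2 at 0.54 and Serpinb10 at 0.46 lie above the band, whose upper edge is 0.43, and no other member lies outside it.

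The chromosome 13 cluster spans 1080 kb (chr13:32934693-34009855, mm9), and 10 of its 14 genes were measured. Their median log2 difference was −0.06, with 4 above 0 and 6 below and 2 past 1.2-fold downward. With Serpinb1c counted in, a choice made after the data were seen, it was −0.08. The range ran from −0.39 to 0.17, against −0.57 to 0.54 on chromosome 1. The difference between the clusters was not tested, since genes of a cluster are not replicates.

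Serpinb1a, the main mouse inhibitor of neutrophil elastase, read 9.24 and 9.40 (0.02 ± 0.20). Its copy Serpinb1b read 0.0754 and 0.0788 (0.06 ± 0.21) and Serpinb1c 0.0269 and 0.0229 (−0.23 ± 0.22). Only Serpinb1c differed by more than its error, and narrowly.

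Among the Serpinb6 genes, related to a human inhibitor of cathepsin G and trypsin-like proteases, 4 of 5 differences lay below 0. So did 56.9% of all measured genes. Serpinb6a read 13.2 and 12.5 (−0.08 ± 0.20). The 2 overlapping probes of Serpinb6c read 4.75 and 4.86 at one and 11.8 and 11.1 at the other, and the gene value of −0.03 ± 0.14 changed sign under other scalings. Serpinb6d read 0.209 and 0.214 (0.03 ± 0.20), a difference within its error like those of Serpinb6a and Serpinb6c. Serpinb6b was lower, 0.0984 against 0.0816 (−0.27 ± 0.21), and so was Serpinb6e, 0.0407 against 0.0340 (−0.26 ± 0.22). Both lie far inside the range of all genes, whose 5th percentile was −0.64.

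The Serpinb9 subfamily held both detected and undetected members, with 3 of its 7 genes measured. Serpinb9 itself, the inhibitor that protects cells from granzyme B, read 0.0443 and 0.0497 (0.17 ± 0.21) and stood 9.56 times above the lowest detected signal. Serpinb9c read 0.0111 and 0.00851 (−0.39 ± 0.33) at one probe, in a part of the slide where dim spots scattered, and was not well above background at the other. Serpinb9e read 0.00643 and 0.00570 (−0.17 ± 0.42) at one probe, only 1.23 times the lowest detected signal, and its second probe was likewise not well above background. The remaining 4, Serpinb9b, Serpinb9d, Serpinb9f and Serpinb9g, were not well above background on either array. All 4 undetected genes therefore belong to this subfamily, and none of its measured members was bright.

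The 6 probes that were not measured had relative signals of 0.00132 to 0.00177 in the wild type and 0.00106 to 0.00366 in the knockout. The lowest signal counted as detected was 0.00563 and 0.00427. No fold is given for these genes, because neither side was measured. The highest of them, Serpinb9g in the knockout, lay in a part of the slide where dim spots scattered more than elsewhere. The undetected probes held 16.7% to 40.0% G and C, with a median of 35.0%, and the measured ones 35.0% to 45.0%, with a median of 38.3%. The lowest share, 16.7%, belonged to Serpinb9b. The promoters of Serpinb9d, Serpinb9e, Serpinb9f and Serpinb9g were 87.3% to 94.7% identical to each other over 300 bases, and of these 4 genes only Serpinb9e had a detected probe.

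The genes beside the clusters were read in the same way. Within 500 kb outside the chromosome 1 cluster 8 genes were measured, with a median of −0.04. The lowest was −0.25 ± 0.21 (a probe without a gene name, A_55_P2143376). The highest was 0.28 ± 0.38 (D630008O14Rik), within its error and from a dim 0.00604 to 0.00734. Outside the chromosome 13 cluster 12 were measured, with a median of −0.08. Their lowest was Mylk4, a myosin light chain kinase, 2.89-fold lower (−1.53 ± 0.36). It was dim, at 0.0151 and 0.00524, the latter near the lowest detected knockout signal of 0.00427. Their highest was Ripk1, a kinase of cell death signalling, at 0.29 ± 0.20. Inside the chromosome 1 cluster, between Serpinb13 and Serpinb3a, 1 further probe (chr1:108916786-108916845) is annotated only as ENSMUST00000122046. The wild type read 0.0342 and the knockout 0.0165, 2.08-fold lower (−1.06 ± 0.24), and was singled out after its value was seen. Inside the chromosome 13 cluster 2 further genes were measured, also known only by identifiers, at −0.06 ± 0.20 (ENSMUST00000121346) and −0.06 ± 0.23 (ENSMUST00000140484).

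A list of proteases was taken as targets of clade B serpins, without a check that each is inhibited by one. Of 27 named, 25 were measured, with 12 above 0, 13 below and none 1.5-fold apart. Their median was −0.01 and took either sign over the other settings. At 1.2-fold 2 were higher and 6 lower, beside 11.4% and 19.7% of all measured genes. The highest was Ctsg, the granule protease cathepsin G, which read 0.411 and 0.584 (0.51 ± 0.20). The lowest was Casp4, an inflammatory caspase, at 0.463 and 0.349 (−0.41 ± 0.14).

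In the plasminogen activator system, to which Serpinb2 belongs by its target, 12 of 13 genes were measured, with a median of −0.08. Among them 1 was at least 1.5-fold higher and 1 at least 1.5-fold lower. The highest was Serpinf2, which encodes antiplasmin, 2.12-fold higher from a dim 0.0148 to 0.0314. The lowest was Vtn, the matrix protein vitronectin, at 0.231 and 0.142 (−0.70 ± 0.20).

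Other inhibitor families gave wider ranges than the clade B serpins, with dim genes among their extremes. Of 22 non-serpin inhibitors of epithelia 20 were measured, with a median of −0.07. Slpi, a secreted inhibitor of leukocyte elastase, was 2.22-fold higher (0.0633 and 0.141), and Wfdc3, a gene of the same domain family, 2.11-fold lower (0.0256 and 0.0122). Among serpins of other clades 26 of 34 were measured, with a median of −0.35 (−0.35 to −0.26 over the other settings), 21 of them below 0 and 5 at least 1.5-fold lower. The lowest were Serpina3k, at 0.0128 and 0.00533 (2.40-fold lower, −1.26 ± 0.35), and Serpina3c, at 0.406 and 0.183 (2.22-fold lower). Serpina3k was dim, with a knockout value near the lowest detected knockout signal of 0.00427. Serpinf2 was again the highest. In the clade B serpins 11 of 23 were below 0 and none was 1.5-fold lower. Of all measured genes 56.9% were below 0. Whether the 2 groups of serpins differ was not tested.

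**Figure D4:**
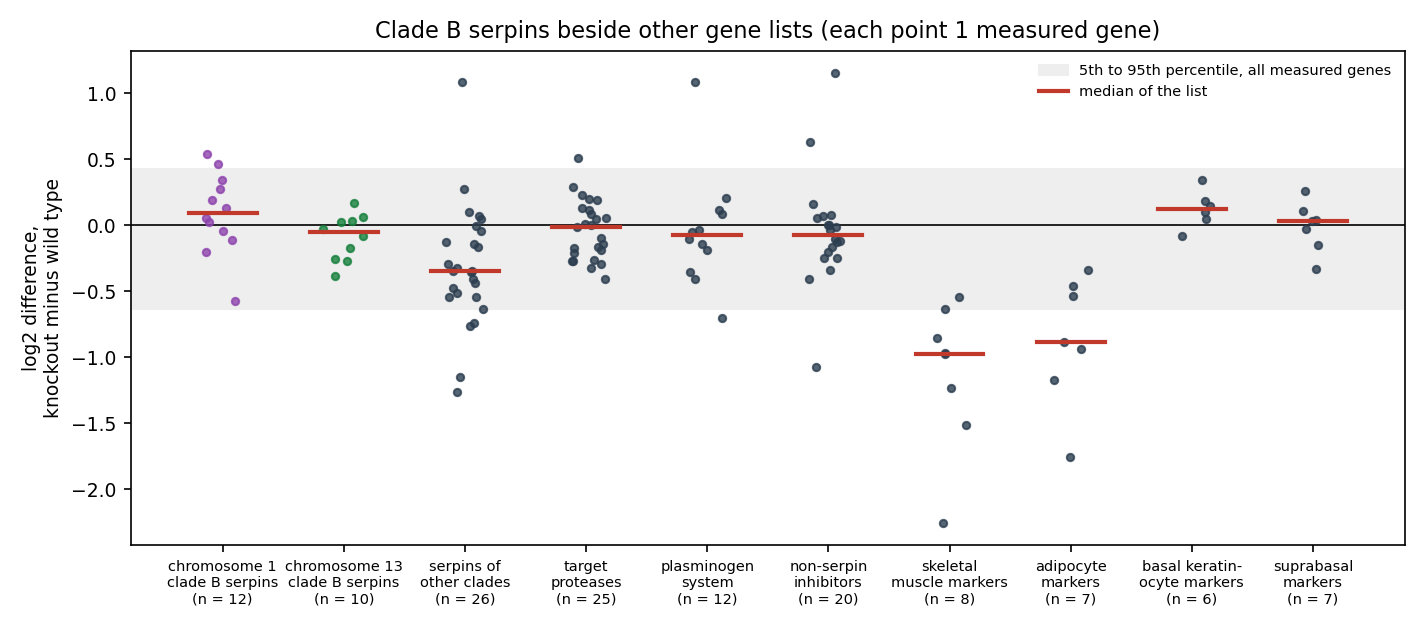
Log2 difference, knockout minus wild type, of each measured gene (points) in the clade B clusters, in lists of related genes and in 4 marker lists, with red bars at the median of each list and a grey band from the 5th to the 95th percentile of all measured genes. The clade B clusters have medians of 0.09 and −0.06, beside −0.35 for serpins of other clades, −0.97 for skeletal muscle markers and −0.89 for adipocyte markers.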

How the data were processed

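Per the file headers, the authors' scanner files hold the processed intensity of 44397 spots, read out by Agilent Feature Extraction (version 11.5.1.1), which took off background, removed spatial trends and estimated each signal's error. Input was 200 ng of total RNA labelled with Cy3. The authors deposited a series matrix of ratios, each equal to the scanner file's processed value over a fixed factor (wild type 1905.6, knockout 2080.4), linear and not centred on genes; it served as an alternative. Here 192 outlier spots and all control spots were left out. Log2 intensities were averaged per probe and scaled to the 75th percentile. A gene is the mean over probes that on both arrays were unsaturated and well above background. Well above background held for 74.9% of wild type and 76.8% of knockout probes, and 0 spots were saturated. The number of arrays limits the precision. Between spots of 1 probe the SD of the log2 difference had a median of 0.06 over 320 probes, and between probes of a gene the pooled SD was 0.25. Every member was described; of other lists and of neighbours outside the clusters only the highest, the lowest and genes 2-fold apart were named. Members and lists were chosen with earlier results of these data known. Calculations used Python 3.11.15, and limma 3.58.1 in R 4.3.3 for the alternative normalizations, and were tested on simulated data. Matches to RefSeq names and promoters used build GRCm38.p6; mm9 positions are the files' own.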

Additional observations from a re-analysis of the deposited data

How the results depend on the processing

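The counts, the medians and the members' values were recomputed under 10 alternatives; single genes of the other lists and the neighbours were not. They were normexp background correction with an offset of 50, scaling to the median or to the 75th percentile of detected probes, quantile and loess normalization, no filter on dim probes, a filter at 4 times the lowest detected signal, the brightest probe per gene, removal of slide areas in which spots scattered, and the series matrix. No paired analysis was possible because each genotype has 1 array, and for the same reason no replicate could be left out. The chromosome 1 median stayed between 0.09 and 0.14 and the chromosome 13 median between −0.09 and 0.00. Serpinb11 and Serpinb9e had a value under 9 alternatives and Serpinb9c under 8, since the stricter filter or the removal of slide areas left out their spots. Of 226 values of members, 225 moved by less than the gene's error; the exception was Serpinb9c, at −0.02 with no filter. Serpinb2 kept 0.54 to 0.58, Serpinb10 0.43 to 0.51 and Serpinb13 −0.57 to −0.42. With no filter on dim probes 1 gene, Serpinb9g, which was not well above background, counted as 1.5-fold higher and as 2-fold apart. The genes 1.2-fold lower then numbered 5 rather than 3, beside 30.1% of all genes; they numbered 2 under 7 alternatives and 3 under 2. Those 1.2-fold higher numbered 4 under 8 alternatives, 3 with normexp and 5 with no filter. Serpinb6b ranged from −0.27 to −0.22 and Serpinb3b from 0.21 to 0.32. Values near 0 changed sign for Serpinb11 (−0.02 with normexp), Serpinb6c (up to 0.04 under normexp, median scaling or quantile normalization) and Serpinb9e (0.22 with no filter). The causes were not tested. Of 30 single-spot probes, 3 lay in scattering areas (Serpinb11, Serpinb9g and a Serpinb9c probe); around all 30 the local median log2 difference lay between −0.11 and 0.06. The row of the Serpinb2 spot scattered 1.24 times as much as the slide, just under the limit used for leaving rows out.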
